A study of Mus musculus with 2 samples.

Results

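The cells described here are heart macrophages that carried transcripts of the complement C1q genes and of the MHC class II genes, with almost none of the transcripts of Lyve1-type resident macrophages. They were chosen cell by cell on counts of unique molecular identifiers (UMIs, each standing for 1 captured transcript). A cell was first kept if it had 1000 UMIs or more from no fewer than 500 genes, with no more than 10% of its UMIs mitochondrial. It needed at least 3 UMIs summed over C1qa, C1qb and C1qc and at least 3 over H2-Aa, H2-Ab1 and H2-Eb1, and at most 1 over Lyve1, Folr2, Cbr2 and F13a1. Cells with a UMI of Spp1, Gpnmb, Cd79a, Cd3e, Pecam1 or Cdh5, or with more than 3 of Dcn, Col1a1 and Col3a1, were left out, which removed cells with transcripts of lipid-associated macrophages, lymphocytes, endothelium and fibroblasts. The rule held for 416 of 7442 cells past the filters, out of 10667 deposited. Of these, 199 lay among 3719 wild-type cells (5.35%, 95% binomial interval 4.65 to 6.12) and 217 among 3723 AC8 cells (5.83%, 5.10 to 6.63).

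The 2 libraries were made from the hearts of C57/B6 wild-type mice and of AC8 overexpressing mice of the same strain, both untreated, the wild-type mice being littermates. AC8 is adenylyl cyclase 8, which makes the second messenger cyclic AMP, and the series title places its overexpression in cardiomyocytes. The promoter that drives the transgene, the age of the mice and the number of mice in each pool are not given in the sources used here. Hearts of 1 genotype were pooled and sorted into leukocytes (CD45+CD31-), mesenchymal cells (CD45-CD31-) and endothelial cells (CD45-CD31+), and the sorted cells were mixed in even proportions into 1 droplet library per genotype. With 1 library on each side no difference has a replicate check, none was tested, and every interval below covers counting error at 95% only. No cell had the same profile in both libraries. In paired values, wild type comes first and AC8 second.

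Macrophages of the heart are usually divided into long-lived resident cells, which carry Lyve1, Folr2 and Timd4 and renew locally, and cells with high MHC class II, part of which are replaced from blood monocytes through the chemokine receptor Ccr2. MHC class II molecules are pairs of alpha and beta chains, such as H2-Aa with H2-Ab1, that carry peptides to the cell surface for CD4 T cells. H2-Eb1 encodes a beta chain of H2-E, and whether H2-E protein was made in these mice was not measured. Cd74 is the invariant chain that keeps other peptides out of class II molecules on the way. H2-DM loads the peptide, and Ciita is the coactivator that turns the genes on. C1q starts the classical complement pathway and marks dying cells for uptake, and its main source in tissues is the macrophage.

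The cells were chosen on class II transcripts, and interferon-induced genes were among the genes that differed most between the libraries, so the promoters of 2 genes of each kind are shown. They were read from RefSeq promoters on GRCm38.p6, the assembly also called mm10, as the 170 bases before the gene's start, 5′ to 3′ on the gene's own strand. Capitals mark the motif searched on both strands. For the class II genes this was the Y box, CTGATTGG, which 3.34% of 32817 promoters held in the same window. Both genes held 1 match, with its first base 51 bases before the start of H2-Aa and 62 before that of H2-Eb1.
H2-Aa (chr17:34287824-34287993, minus strand): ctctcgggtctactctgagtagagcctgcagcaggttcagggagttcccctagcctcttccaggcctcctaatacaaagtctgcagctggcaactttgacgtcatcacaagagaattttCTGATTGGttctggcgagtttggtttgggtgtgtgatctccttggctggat
H2-Eb1 (chr17:34305697-34305866, plus strand): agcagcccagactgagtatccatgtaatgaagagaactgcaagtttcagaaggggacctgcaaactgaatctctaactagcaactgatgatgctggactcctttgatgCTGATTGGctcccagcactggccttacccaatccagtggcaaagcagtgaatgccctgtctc
For the interferon-induced genes the motif was the core of the interferon-stimulated response element, which is GAAA, any 2 bases, then GAAA again, held by 1.86% of the same promoters. In Isg15 it occurred 3 times with overlap, first bases 78, 72 and 66 before the start, and in Ifit3 2 times on the opposite strand, first bases 156 and 122 before it. Ifit2, Irf7, Oasl1 and Oasl2 did not hold these letters in the window.
Isg15 (chr4:156200819-156200988, minus strand): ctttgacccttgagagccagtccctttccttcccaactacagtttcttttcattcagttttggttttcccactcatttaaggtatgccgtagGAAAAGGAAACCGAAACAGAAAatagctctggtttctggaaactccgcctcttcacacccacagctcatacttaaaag
Ifit3 (chr19:34583359-34583528, plus strand): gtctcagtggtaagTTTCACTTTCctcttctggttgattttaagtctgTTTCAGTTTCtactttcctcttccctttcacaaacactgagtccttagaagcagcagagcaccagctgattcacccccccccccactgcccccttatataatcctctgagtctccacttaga
Of 28 type I interferon response genes measured in these cells, 23 had an entry and 9 of those (39.1%) held the motif. A match describes the letters and is not a measured binding site.

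The values that chose the cells are given as a description. Summed C1q UMIs ran from 3 to 111 with a median of 21 in wild type, while in AC8 the range was 3 to 147 and the median 36. Summed class II UMIs ran from 4 to 282 (median 62) and from 3 to 292 (median 76). The AC8 cells were sequenced more deeply, with a median of 2499 UMIs per cell against 1789, and after thinning every cell to 1000 UMIs the medians were 12 and 15 for C1q and 34 and 32 for class II. At the edges of the rule, 58 and 48 cells had exactly 1 UMI of the Lyve1 set and another 34 and 22 cells were left out for having 2, while 6 and 20 cells were left out for a single UMI of Spp1 or Gpnmb. Only 3 and 3 cells sat at 3 C1q UMIs, and 1 and 5 were left out at 2. Since the rule counts raw UMIs, a deeper cell passes the limits on Lyve1 set and Spp1 or Gpnmb less easily.

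As a share of all C1q macrophages the cells made up 199 of 533 in wild type (37.3%, interval 33.2 to 41.6), while the AC8 count was 217 of 673 (32.2%, interval 28.7 to 35.9). With the rule applied after thinning to 1000 UMIs that order stayed, at 45.8% and 42.0%. Within bands of depth the order turned, with overlapping intervals. The shares were 46.1% and 50.4% among cells under 2000 UMIs, and 27.3% and 28.0% among cells of at least 2000 UMIs. The remaining C1q macrophages were mainly cells with 3 or more UMIs of the Lyve1 set and none of Spp1 or Gpnmb, called Lyve1-set macrophages below (278 and 302 cells). Cells with at least 3 UMIs of Spp1 and Gpnmb numbered 2 and 54, and none of them enters the cells described here.

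The label was checked on genes that the rule did not use. At equal depth Csf1r, the receptor that macrophages need to survive, had a UMI in 59.8% and 56.7% of cells. Endothelial cells, which should lack Csf1r, had it in 0.260% and 0.656%. Among 20 macrophage identity genes, all 20 were measured in these cells. Cx3cr1, the fractalkine receptor, was detected in 26.1% (20.2 to 32.8) of wild-type cells and 28.6% (22.7 to 35.1) of AC8 cells, against 10.1% and 13.6% of Lyve1-set macrophages, 0% and 3.85% of dendritic cells and 0% and 0% of endothelial cells. Cd72, an inhibitory receptor that binds semaphorin 4D, was detected in 17.6% (12.6 to 23.6) of wild-type cells and 25.8% (20.1 to 32.2) of AC8 cells, again above the 5.40% and 7.28% of Lyve1-set macrophages. Lilra5, an activating receptor of the leukocyte immunoglobulin-like family, did not separate the cells in both libraries. It was found in 25.6% (19.7 to 32.3) of wild-type cells and 14.3% (9.92 to 19.7) of AC8 cells, beside 19.4% and 14.9% of Lyve1-set macrophages. Cx3cr1 and Cd72 were thus higher than in the Lyve1-set cells of both libraries, and Lilra5 in wild type alone, where the intervals overlap.

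**Figure D1:**
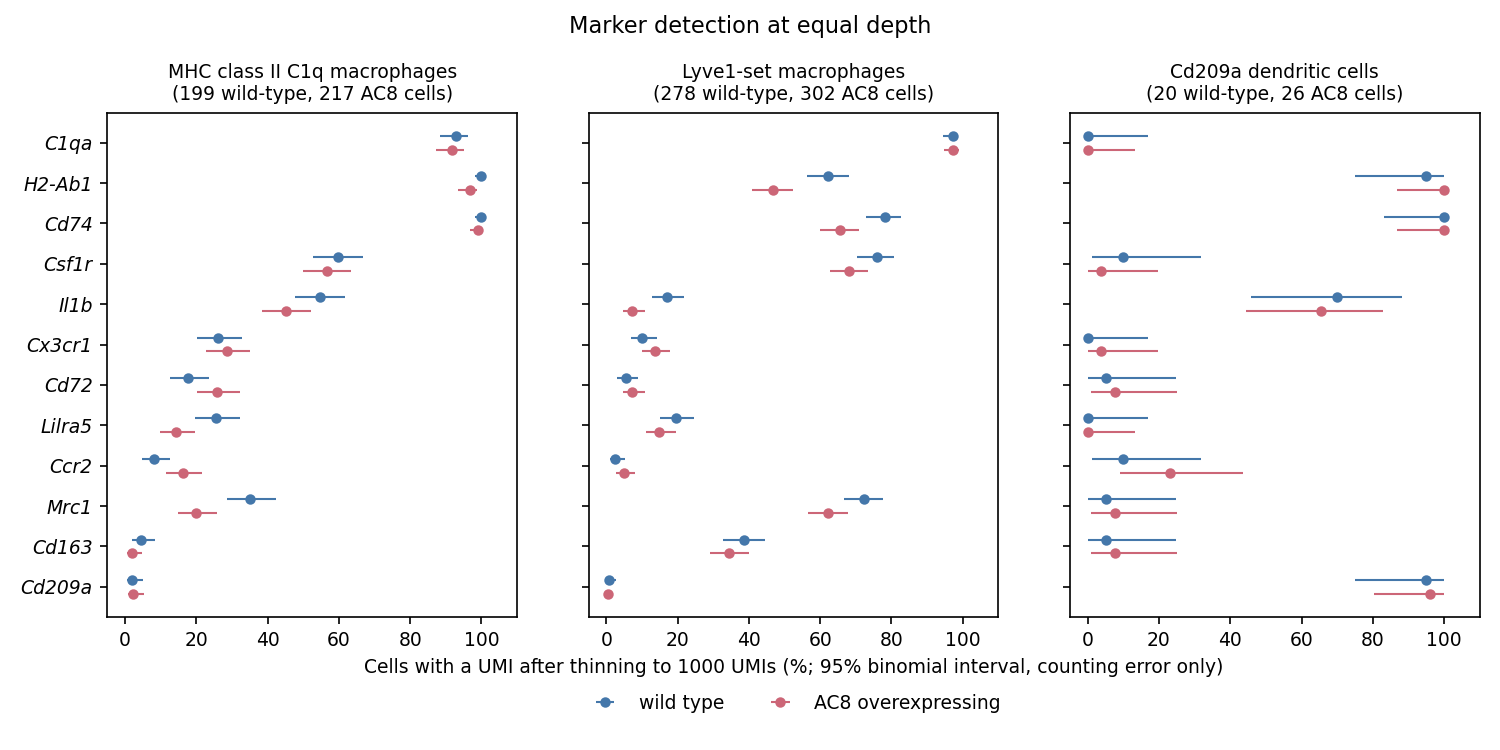
Share of cells with a UMI of each gene after every cell was thinned to 1000 UMIs (x axis, percent), in MHC class II C1q macrophages, Lyve1-set macrophages and Cd209a dendritic cells; points are libraries and lines are 95% binomial intervals covering counting error only. C1qa and H2-Ab1 were used to choose the cells; Cx3cr1, Cd72 and Ccr2 stand higher in the first panel than in the second in both libraries, and Lilra5 does so in wild type only, with overlapping intervals.

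Against Lyve1-set macrophages of the same library the cells had more antigen presentation and interleukin-1 beta transcripts and fewer of the scavenger and chemokine genes of resident cells. The comparison is a description, because the rule set the groups apart and the Lyve1-set cells were not selected on class II. Levels are given as CPM, the gene's UMIs scaled to a common total of the summed cells, and 2-fold is judged on log2(CPM + 10). Of 4701 genes with at least 30 summed UMIs, 1.02% were at least 2-fold higher in both libraries and 3.96% at least 2-fold lower in both. Il1b, the inflammatory cytokine interleukin-1 beta, stood at 2332 against 527 CPM in wild type and 1547 against 196 CPM in AC8. Ccr2, the receptor for monocyte-attracting chemokines, stood at 143 against 27.7 CPM in wild type and 206 against 59.3 CPM in AC8. Both genes were higher in both libraries, and at equal depth Il1b had a UMI in 54.8% and 45.2% of cells against 16.9% and 7.28%. Dendritic cells had an Il1b UMI in 70.0% and 65.4%. Cd74 stood at 50908 against 17739.6 CPM in wild type and 49791 against 13218 CPM in AC8, and Ciita at 84.8 against 33.5 and 57.6 against 12.6 CPM. With H2-DMa and H2-DMb1, these were 4 of the 6 measured class II pathway genes outside the rule that were at least 2-fold higher in both. The other genes named by size were Rgs1, a brake on chemokine receptor signalling (1200.5 against 367 CPM in wild type and 1654 against 414 CPM in AC8), and Bcl2a1d, Glipr1, Plbd1 and Cd207, with ratios over both libraries from 3.23 to 7.31. Bcl2a1d has near-identical copies, so its counts are uncertain.

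The resident genes outside the rule were lower throughout: 19 of 22 were measured, and 18 were at least 2-fold lower in both libraries. Timd4, a receptor for phosphatidylserine on dying cells, stood at 23.9 against 301 CPM in wild type and 16.0 against 219 CPM in AC8. Cd163, the haptoglobin-hemoglobin scavenger receptor, stood at 87.5 against 708 CPM in wild type and 19.2 against 585 CPM in AC8, and Ednrb, an endothelin receptor, at 10.6 against 329 CPM in wild type and 1.60 against 189.7 CPM in AC8. The monocyte chemokine gene Ccl7 (29.2 against 888 CPM in wild type and 91.2 against 1274 CPM in AC8) and Ccl8 (2.65 against 108 CPM in wild type and 12.8 against 732 CPM in AC8) were lower as well, as were Ltc4s, Colec12 and Fcna. In wild type Fcna, a soluble lectin of the complement system, had no UMI in these cells and 108 in Lyve1-set cells. Complement genes outside the rule pointed the same way, with 8 of 9 lower in both libraries and 3 at least 2-fold lower. Of all 4701 genes, 2464 were lower in both libraries and 928 higher in both. Among 20 measured efferocytosis and phagocytic receptors 6 were at least 2-fold lower in both libraries and 1 higher. The higher gene was Axl, a receptor for dying cells, at 212 against 83.0 CPM in wild type and 169.5 against 41.8 CPM in AC8. Gas6, which encodes its ligand, stood at 66.3 against 539 CPM in wild type and 35.2 against 543 CPM in AC8.

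Dendritic cells share class II with these cells, so cells with Cd209a, class II and no C1q UMI served as a second comparison, although only 20 and 26 cells met it. Of 2023 genes, 8.06% were at least 2-fold higher in both libraries and 2.52% lower. Apoe, the lipid carrier, stood at 7478 against 27.8 CPM in wild type and 8262 against 35.4 CPM in AC8. No UMI of the complement receptor genes C5ar1 and C3ar1 was found in the dendritic cells, where 0 allows up to 3 UMIs per library, against 159 and 333 UMIs of C5ar1 and 103 and 206 of C3ar1 in the macrophages. Cd63, Ms4a7, Retnla and Pf4 were also among the genes named by size, and Pf4 stood at 617 against 13.9 CPM in wild type and 534 against 8.86 CPM in AC8. All 18 measured macrophage identity genes were higher than in dendritic cells in both libraries, 10 of them at least 2-fold. Of all 2023 genes, 651 were higher in both. This comparison too is a description, because the rules set the groups apart on C1q, a macrophage product. Lower genes were led by Cd209a itself, part of the rule for dendritic cells, and by Cd209c, Napsa, Bhlhe40, Macroh2a1, Olfm1, Pmaip1 and Jak2. Napsa, an aspartic protease gene, stood at 34.5 against 569 CPM in wild type and 89.6 against 726 CPM in AC8. A UMI of Cd209a was nonetheless present in 2.01% and 2.30% of the macrophages at equal depth.

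Lipid-associated macrophages could be compared in the AC8 library alone, because only 2 wild-type cells had 3 or more UMIs of Spp1 and Gpnmb. The 54 AC8 cells had a median of 6200 UMIs, above the 2499 of the cells described here, so the comparison also crosses a gap in depth. Of 4059 genes, 4.68% were at least 2-fold higher and 5.27% lower in the class II cells. Lower genes included Fabp5, a fatty acid-binding protein (92.8 against 1187 CPM), Ctsd, the lysosomal protease cathepsin D (387 against 3456 CPM), and Syngr1 (4.80 against 170.4 CPM). All 17 lipid-associated genes outside the rule were lower, 16 of them at least 2-fold. Of all 4059 genes, 2201 were lower and 1858 higher. The comparison is a description, because the groups were set apart on Spp1 and Gpnmb and only the class II cells were selected on class II. Higher genes included Retnla (891 against 83.8 CPM), Lilra5 (144 against 14.0 CPM) and Cd207 with 169 UMIs against none. Of 7 measured class II pathway genes, 4 were at least 2-fold higher. Hspa1a and Hspa1b, near-identical heat shock genes that are induced when tissue is dissociated, were among the 8 highest (2055 against 363 CPM for Hspa1a), and 26 of 30 dissociation stress genes were higher, 7 of them at least 2-fold. The part of dissociation in this comparison was not tested.

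Between the genotypes, the AC8 cells had higher levels of genes from the recruited monocyte, lipid-associated macrophage and type I interferon lists and class II levels less than 2-fold apart. Of 4124 genes tested, 3.35% were at least 2-fold higher in AC8 and 3.25% at least 2-fold lower, 6.6% either way, and the median log2 ratio was 0.02. Adcy8, which encodes AC8, had 0 UMIs on both sides, which allows up to 7.95 and 4.80 CPM. Depth moves with genotype: 131 of 199 wild-type cells but 64 of 217 AC8 cells had fewer than 2000 UMIs. Each gene below outside the rule was therefore also compared among cells under 2000 UMIs and among cells of 2000 or more. These ratios, the shallower cells first, are given where they differ in direction or by over 1.5 times, and as UMIs where they rest on few. Median UMIs per cell were 1528 and 1528.5 in the shallower band but 2424.5 and 3013 in the deeper one. Depth was thus matched in the shallower band only.

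Genes of recruited monocytes were higher in AC8. Of 19 listed, 10 were measured, 4 were at least 2-fold higher and none was 2-fold lower, and the median log2 ratio was 0.74. Fn1, which encodes fibronectin (chromosome 1, 71585520 to 71653200, minus strand), stood at 10.6 and 235 CPM, a ratio of 22.2 (8.48 to 82.5). Only 4 and 22 cells had a UMI of Fn1, and 1 AC8 cell held 55 of the 147 UMIs. The AC8 level thus rested on few cells, and without the highest cell of each library the ratio was 18.5. The calcium-binding genes S100a4 and S100a6 were spread more widely. S100a4 stood at 47.7 and 226 CPM in 9 and 53 cells, with 1 and 10 UMIs in the shallower cells and a ratio of 2.61 in the deeper ones. S100a6 stood at 278 and 982 CPM, a ratio of 3.53 (2.87 to 4.38). At equal depth S100a6 had a UMI in 11.6% and 29.5% of cells. Fibroblasts carried it in 89.9% and 91.0%, and the part of free fibroblast RNA was not tested. The S100a6 ratio was 4.18 among cells under 2000 UMIs and 2.23 among deeper cells. S100a10, a partner of annexin A2, stood at 246 and 611 CPM, and Anxa2 itself at 151 and 542 CPM. In Lyve1-set macrophages the ratio was 2.13 for Fn1, 1.42 for S100a6 and 1.82 for Anxa2, but 0.853 for S100a4 and 0.889 for S100a10. Ccr2 was at 143 and 206 CPM, a ratio of 1.44 (1.04 to 2.02) that was 4.85 in the shallower and 0.809 in the deeper cells. The direction of Ccr2 therefore differed with depth, while the share of cells with a Ccr2 UMI after thinning was 8.04% (4.67 to 12.7) of wild-type cells and 16.1% (11.5 to 21.7) of AC8 cells. Ly6c2, the gene behind the Ly6C marker of circulating monocytes, had 1 and 5 UMIs in these cells and none after thinning.

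Lipid-associated macrophage genes outside the rule were all on the AC8 side. Of 17 listed, 16 were measured and above 0, and 7 were at least 2-fold higher, with a median log2 ratio of 0.67. Every one of these cells had 0 UMIs of Spp1 and Gpnmb by the rule. Lgals3, which encodes the sugar-binding protein galectin-3 (chromosome 14, 47367751 to 47386160, plus strand), stood at 257 and 1259 CPM, a ratio of 4.90 (3.96 to 6.11), and was found in 16.1% (11.3 to 21.9) of wild-type cells and 43.8% (37.1 to 50.7) of AC8 cells at equal depth. The Lgals3 ratio was above 1 in both depth bands (3.89 and 3.40). Mmp12, the macrophage elastase, stood at 92.8 and 549 CPM, a ratio of 5.91 (4.17 to 8.63), which was 1.36 among cells under 2000 UMIs and 5.64 above. Capg, an actin-capping protein, stood at 90.1 and 390.2 CPM and Ctsd at 106 and 387 CPM, with ratios by depth of 2.22 and 4.10 for Ctsd. In Lyve1-set macrophages the ratio was 1.94 for Capg and, from 1 and 20 UMIs, 13.4 for Mmp12. Fabp5, Lgals1 and Cd9 were the other members at least 2-fold higher, at 21.2 and 92.8 CPM, 220.0 and 589 CPM and 193 and 429 CPM. Fabp5 had 3 and 3 UMIs in the shallower cells and a ratio of 3.72 in the deeper ones, and the ratios by depth were 1.66 and 2.54 for Lgals1. Trem2, the lipid-sensing receptor after which lipid-associated macrophages are often named, stood at 148 and 256 CPM, a ratio of 1.72 (1.26 to 2.38). Trem2 was below wild type in the shallower cells (0.911, from 29 and 13 UMIs) and above it in the deeper ones (1.84). The list followed depth: among cells under 2000 UMIs 7 of 12 measured genes were above 0 with a median of 0.17, and among deeper cells 16 of 16 with a median of 0.84.

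Lysosomal genes overlapped with that list and were mostly higher by small amounts, with 19 of 21 above 0, 1 at least 2-fold higher and a median log2 ratio of 0.30. Apart from Ctsd, the largest ratios were those of Ctsz (517 and 884 CPM) and Ctsa (379 and 549 CPM), which encode lysosomal peptidases. Among cells under 2000 UMIs 12 of 19 were above 0, with a median of 0.07.

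**Figure D2:**
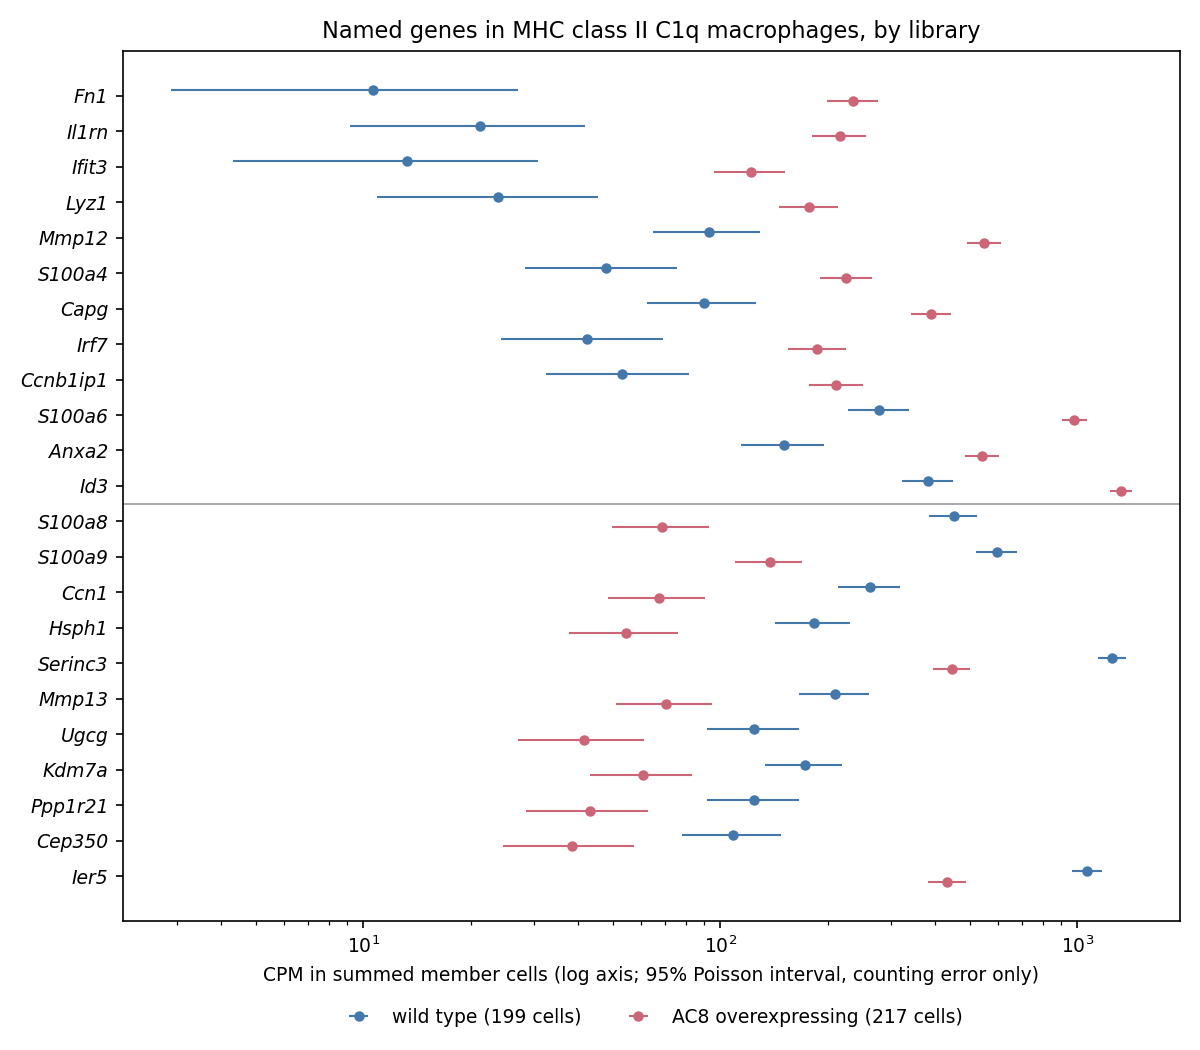
Levels of the 12 named genes with the highest (top) and 11 with the lowest (bottom) AC8 to wild-type ratios, in summed cells of each library (x axis, CPM, log scale); lines are 95% Poisson intervals covering counting error only. Fn1 ranges from 10.6 CPM in wild type to 235 in AC8, and Serinc3 from 1251 to 446.

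Most genes of the type I interferon response were higher in AC8, and those at least 2-fold higher had UMIs in a minority of cells. Of 38 type I interferon response genes 28 were measured. Of these, 21 were above 0, 5 were at least 2-fold higher and none was 2-fold lower, with a median log2 ratio of 0.45. With at least 100 summed UMIs, 9 of 9 were above 0 and 2 at least 2-fold higher. Irf7, the transcription factor that amplifies the interferon response (chromosome 7, 141262706 to 141266481, minus strand), stood at 42.4 and 187 CPM, a ratio of 4.41 (2.61 to 7.98), with a UMI in 16 and 48 cells. At equal depth Irf7 was found in 3.52% (1.43 to 7.11) of wild-type cells and 12.4% (8.36 to 17.6) of AC8 cells, and its ratio was 4.47 and 3.26 in the shallower and deeper cells. Isg15, a ubiquitin-like modifier whose promoter is shown above, stood at 55.7 and 165 CPM, a ratio of 2.96 (1.84 to 4.98), and it was 1.40 under 2000 UMIs and 6.23 above. Ifit3, which encodes an RNA-binding antiviral protein, had 5 and 76 UMIs in 5 and 19 cells (13.3 and 122 CPM). A single AC8 cell held 40 of the 76, and without the highest cell of each library the ratio was 5.43 in place of 9.17. There were 4 and 8 UMIs of Ifit3 under 2000 UMIs and 1 and 68 above. Ifit3 also has a near-identical neighbour, Ifit3b, so its counts are uncertain. Ifit2 (5 and 38 UMIs) and Oasl1 (2 and 33 UMIs) had 19 and 21 of their AC8 UMIs in 1 cell, and Oasl1 had 1 and 0 UMIs in the shallower cells. Genes of the list at higher levels differed less: Ifi27l2a stood at 1134 and 1764 CPM and Bst2, a tether of budding viruses, at 265 and 395 CPM. The receptor genes Ifnar1 and Ifnar2 stood at 101 and 104 CPM and 249 and 222 CPM. In Lyve1-set macrophages the same ratio of AC8 to wild type was 2.36 for Irf7, 2.77 for Isg15 and 3.96 for Ifit3, so the direction was shared with them.

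Class II genes, the ones by which the cells were chosen, differed little between the libraries. H2-Aa stood at 12781 and 11135 CPM, H2-Ab1 at 8968 and 8195 CPM and H2-Eb1 at 12140 and 11522 CPM, ratios of 0.871, 0.914 and 0.949. Outside the rule, Cd74 stood at 50908 and 49791 CPM, a ratio of 0.978 (0.961 to 0.996). H2-DMb1 was at 837 and 1004 CPM and H2-DMa at 609.5 and 662 CPM, and Ciita at 84.8 and 57.6 CPM, with an interval for the Ciita ratio from 0.410 to 1.13 and ratios by depth of 0.581 and 0.923. None of 7 measured class II pathway genes outside the rule was 2-fold apart. In Lyve1-set macrophages, which were not chosen on class II, the Cd74 ratio was 0.745 and that of Ciita 0.377. Choosing cells on class II fixes part of that contrast.

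Co-stimulation genes, whose products give T cells a second signal beside the peptide, had mixed directions, with 2 of 6 measured above 0 and none 2-fold apart on log2(CPM + 10). With genes under 30 UMIs included, 6 of 10 were above 0, with a median log2 ratio of 0.10 in place of -0.53. Cd86, a ligand of CD28, stood at 236 and 114 CPM, a ratio of 0.481 (0.347 to 0.665), and Cd83, an activation marker, at 3114 and 2269.5 CPM. Tnfsf9, the ligand of the T cell receptor 4-1BB, stood at 207 and 389 CPM, a ratio of 1.88 (1.45 to 2.46). Cd86 was thus lower and Tnfsf9 higher in AC8, in both depth bands (0.709 and 0.412 for Cd86, 1.41 and 2.23 for Tnfsf9).

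Among complement genes, the C1q chains that chose the cells stood at 3835 and 4062 CPM for C1qa, 4990.1 and 6484 CPM for C1qb and 3381 and 4002 CPM for C1qc. Itgax, which encodes the complement receptor chain CD11c, stood at 37.1 and 96.0 CPM, a ratio of 2.59 (1.43 to 5.01), and Cfp, the activator properdin, at 71.6 and 144 CPM. Cfp was below wild type in the shallower cells (0.678, from 15 and 5 UMIs) and above it in the deeper ones (2.40). Of 9 measured complement genes outside the rule 6 were above 0, with 1 at least 2-fold higher and 1 at least 2-fold lower.

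Most chemokine genes were higher in AC8 over all cells, but most were lower in the shallower ones. Of 15 measured chemokines 11 were above 0 and 5 at least 2-fold higher, with a median log2 ratio of 0.44. With at least 100 summed UMIs, 8 of 12 were above 0 and 2 at least 2-fold higher, with a median of 0.21. Among cells under 2000 UMIs only 2 of 10 were above 0 and the median was -0.59, while among deeper cells 14 of 15 were above 0 with a median of 0.43. Ccl5, a T cell attractant, had 11 and 113 UMIs in 2 and 17 cells (29.2 and 181 CPM). Under 2000 UMIs it had 0 against 29 UMIs, and 10 of the 11 wild-type UMIs lay in 1 deeper cell. Ccl7 (29.2 and 91.2 CPM), Ccl24 (18.6 and 54.4 CPM), Cxcl1 (109 and 239.9 CPM) and Cxcl3 (15.9 and 43.2 CPM) were the other chemokines at least 2-fold higher. Only 6 and 27 UMIs of Cxcl3 were counted, and it was less than 2-fold apart within each depth band. Cxcl1, a neutrophil attractant, had a ratio of 2.21 over all cells and 0.625 and 3.20 by depth. There were 6 and 1 UMIs of Ccl24 under 2000 UMIs and 1 and 33 above. In AC8, 1 cell held 55.9% of the UMIs of Ccl24 and 1 held 59.3% of those of Cxcl3. Ccl3, a macrophage inflammatory protein, stood at 620.1 and 413 CPM, below wild type in both bands (0.656 and 0.686).

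Of 29 measured NF-kB subunits and target genes, 19 were above 0, 3 at least 2-fold higher and 1 at least 2-fold lower, with a median log2 ratio of 0.27. The list summed to 16531 and 16470.3 CPM, and of its 17 genes with at least 100 summed UMIs 7 were above 0, with a median of -0.13. Under 2000 UMIs 3 of 16 were above 0, with a median of -0.60. Rela, the p65 subunit named in the series title, stood at 79.5 and 96.0 CPM, a ratio of 1.21 (0.766 to 1.94). Rel, the c-Rel subunit, stood at 339 and 162 CPM, a ratio of 0.476 (0.363 to 0.623), and was lower in both bands (0.540 and 0.553). Il1b stood at 2332 and 1547 CPM and Il1a, the other interleukin-1 ligand, at 31.8 and 78.4 CPM. The Il1b ratio was 0.663, and 0.547 and 0.647 by depth, so Il1b was lower in AC8 throughout. For Il1a the ratio was 2.46 over all cells but 0.185 under 2000 UMIs, where 11 and 1 UMIs were counted, against 1 and 48 in the deeper cells. Il1rn, the antagonist that blocks the interleukin-1 receptor (chromosome 2, 24336853 to 24351494, plus strand), went the other way from Il1b, at 21.2 and 216 CPM, a ratio of 10.2 (5.02 to 24.1). It had a UMI in 6 and 44 cells, no cell held more than 10 of its AC8 UMIs, and at equal depth it was found in 1.01% (0.122 to 3.58) of wild-type cells and 10.6% (6.84 to 15.5) of AC8 cells. Il1rn had 1 and 22 UMIs in the shallower cells and a ratio of 5.46 in the deeper ones. In Lyve1-set macrophages the Il1rn ratio was 2.93 (1.81 to 4.95), so its direction was shared with them.

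**Figure D3:**
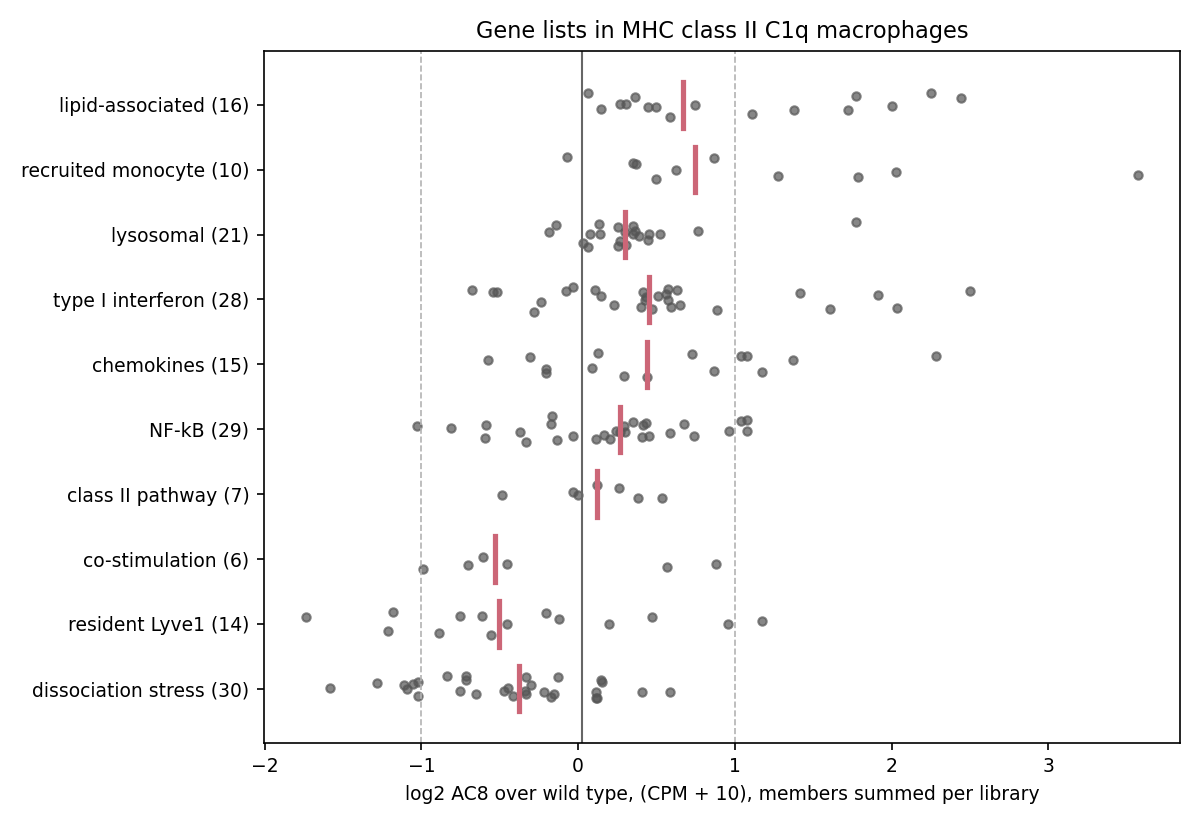
Log2 ratio of AC8 over wild type, on CPM + 10, for each measured gene of 10 lists (points; number of measured genes in parentheses), with the median of each list (thick bar), the median of all 4124 genes (grey line) and 2-fold (dashed lines). All 16 lipid-associated genes lie to the right of 0, and 23 of 30 dissociation stress genes lie to the left.

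**Figure D4:**
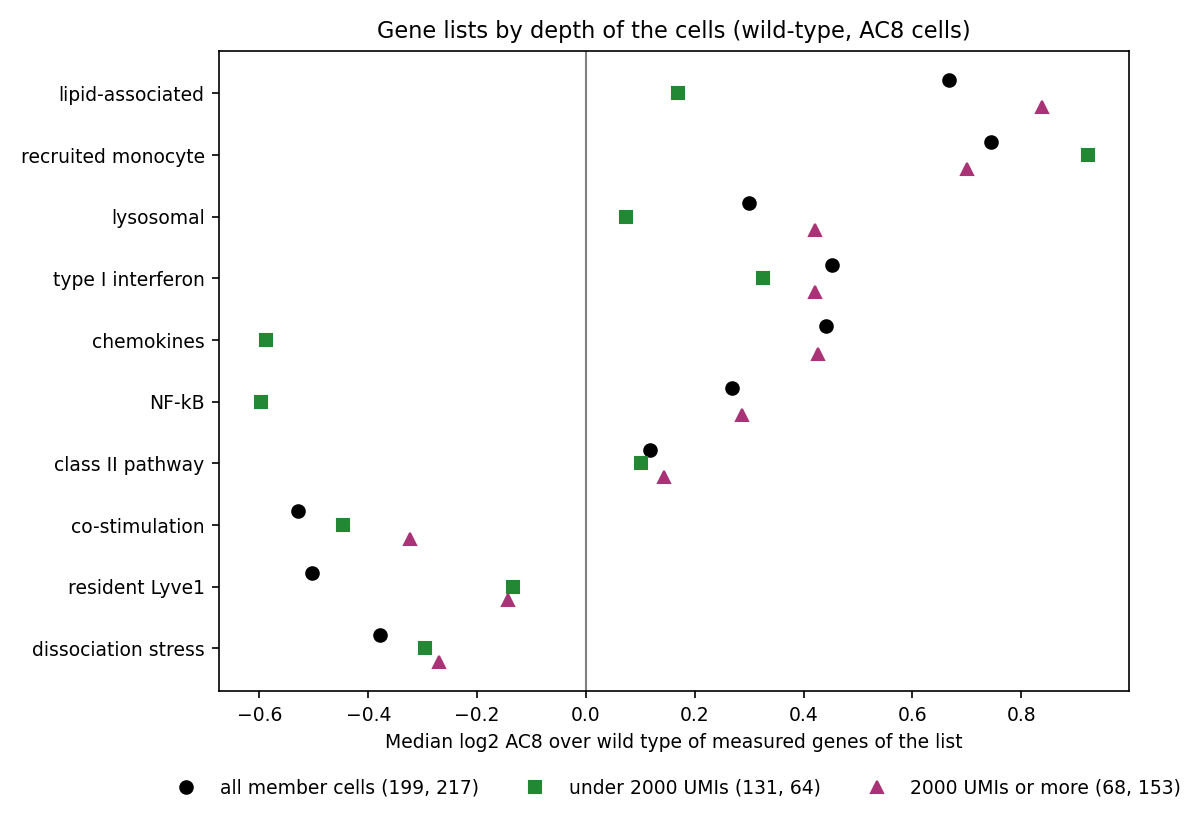
Median log2 ratio of AC8 over wild type of the measured genes of each list (x axis), over all cells, over cells under 2000 UMIs and over cells of 2000 UMIs or more; the numbers of wild-type and AC8 cells are in the legend. The chemokine and NF-kB medians are above 0 over all cells and below 0 in the shallower cells.

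Resident macrophage genes outside the rule were mostly lower in AC8 over all cells, with 4 of 14 measured above 0, 3 at least 2-fold lower and 1 higher, and a median log2 ratio of -0.50. Deeper cells meet the limit on the Lyve1 set less easily. Within the depth bands 3 of 10 and 6 of 12 were above 0, with medians of -0.13 and -0.14. Mrc1, the mannose receptor, stood at 458 and 197 CPM, a ratio of 0.429 (0.338 to 0.544) that was 0.678 and 0.453 by depth. Cd163 had 33 and 12 UMIs (87.5 and 19.2 CPM), with ratios by depth of 0.407 and 0.208, and the ubiquitin ligase gene Wwp1 stood at 143 and 56.0 CPM. Maf, a transcription factor of resident macrophages, stood at 259.7 and 136 CPM, a ratio of 0.523 that was 0.943 and 0.619 by depth. In Lyve1-set macrophages the Mrc1 ratio was 0.634 and the Maf ratio 1.21.

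**Figure D5:**
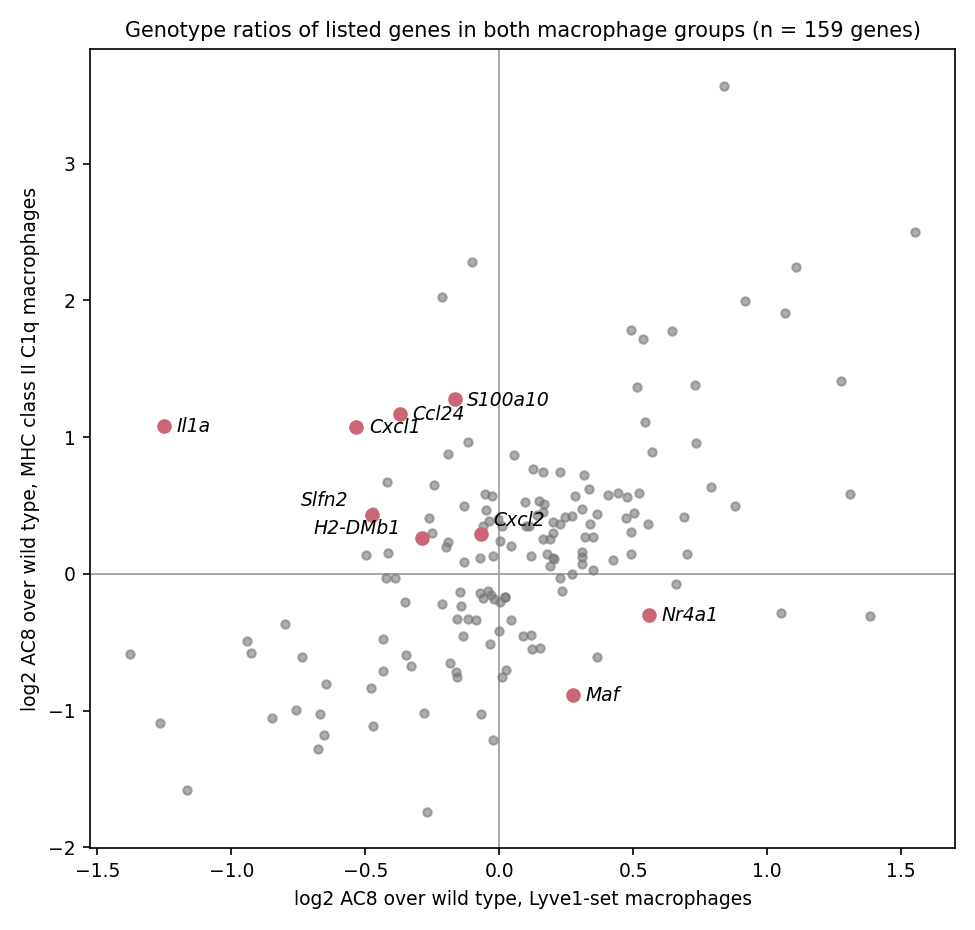
Log2 ratio of AC8 over wild type for 159 listed genes measured in both groups, in Lyve1-set macrophages (x axis) and in MHC class II C1q macrophages (y axis); each point is a gene. Red points are 9 genes whose ratios lie on opposite sides of 1 with both counting intervals clear of 1, among them Il1a, Cxcl1 and Maf.

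Several of the named genes fell outside these groups. Id3, an inhibitor of DNA-binding transcription factors, stood at 382 and 1327 CPM in 43 and 106 cells, a ratio of 3.48 (2.91 to 4.18), whereas Lyve1-set macrophages held 386 and 387 CPM of it. Fibroblasts carried Id3 at 1114 and 1479.9 CPM. Lyz1, a lysozyme gene, stood at 23.9 and 178 CPM, but it is nearly identical to the far more counted Lyz2, so its value is uncertain, and its ratios by depth were 5.76 and 10.6. Ccnb1ip1 stood at 53.0 and 211 CPM, with 36.4% of its AC8 UMIs in 1 cell and ratios by depth of 1.45 and 6.88. Its level was 16.0 and 124 CPM in Lyve1-set macrophages and 35.7 and 101 CPM in fibroblasts, so the direction was shared with both. On the lower side, Serinc3, a member of the serine incorporator family of membrane proteins, stood at 1251 and 446 CPM, a ratio of 0.357 (0.307 to 0.415). It was broad, with a UMI at equal depth in 71.9% (65.1 to 78.0) of wild-type cells and 33.2% (27.0 to 39.9) of AC8 cells. The Serinc3 ratio was 0.398 and 0.397 by depth and 0.666 in Lyve1-set macrophages. Mmp13, a collagenase, was lower at 209 and 70.4 CPM, with ratios by depth of 0.647 and 0.290, and Ugcg, the glucosylceramide synthase, stood at 125 and 41.6 CPM. Kdm7a, Ppp1r21 and Cep350 had AC8 levels from 38.4 to 60.8 CPM against 109 to 172 in wild type. The ratios by depth were 0.581 and 0.305 for Cep350, and there were 28 and 2 UMIs of Ppp1r21 under 2000 UMIs and 19 and 25 above. Ccn1, a matrix protein, was at 262 and 67.2 CPM, and fibroblasts held 857 and 756 CPM of it.

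Genes that tissue dissociation induces were lower in AC8. Of 30 measured, 23 were below 0, 7 at least 2-fold lower and none 2-fold higher, with a median log2 ratio of -0.38. The heat shock gene Hsph1 stood at 183 and 54.4 CPM, Hspa1a at 4457 and 2055 CPM and the immediate-early gene Ier5 at 1065 and 432 CPM. Hspa1b, Hspb1, Dnajb1 and Fosb were the other 4 at least 2-fold lower. By depth the ratios were 0.868 and 0.442 for Fosb, and there were 31 and 2 UMIs of Hspb1 under 2000 UMIs and 17 and 32 above. In sum the list took 83732 and 66721 CPM of the cells. These values move with genotype beside every gene group above, and their part in those was not tested.

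Transcripts of other cell types were low and in places lay largely in single cells. The neutrophil genes S100a8 and S100a9 were among the lowest ratios, at 451 and 68.8 CPM and 596 and 138 CPM, but 8 and 2 cells had any UMI of S100a8 and 11 and 1 any of S100a9. No AC8 cell under 2000 UMIs had a UMI of S100a8 or S100a9, against 40 and 47 UMIs of these genes in wild type. In wild type 1 cell held 61.8% of S100a8, and in AC8 a single cell held all 86 UMIs of S100a9, so both levels came from few cells. The 7 neutrophil genes summed to 1129 and 245 CPM, with 1 gene at 0 on either side. Mural genes summed to 337 and 28.8 CPM, 89 of 127 wild-type UMIs lying in 1 cell, and hemoglobin genes with Alas2 to 234 and 1 UMIs, 224 of them in 1 wild-type cell. Fibroblast genes outside the rule summed to 310.1 and 374 CPM, endothelial genes to 281 and 171 CPM, dendritic cell genes to 501 and 584 CPM, and T cell genes to 92.8 and 57.6 CPM. Without the 7 wild-type cells and 1 AC8 cell that held 10 or more UMIs of neutrophil, mural or erythroid genes, the lipid-associated median was 0.61 and the type I interferon median 0.48.

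Among themselves the cells varied in Ccr2, Cx3cr1 and class II. The splits below were made on cells thinned to 1000 UMIs, where a missing UMI does not show that a gene was off. A Ccr2 UMI was present in 16 and 35 cells and a Cx3cr1 UMI in 52 and 62, with 3 and 13 cells holding both. If the 2 genes were independent, 4.18 and 10 cells would hold both. Counts this low after thinning cannot decide whether the 2 genes mark separate cells. Cells with a Ccr2 UMI had more S100a6 (906 against 209 CPM in wild type and 1796 against 817 CPM in AC8), less of the scavenger receptor gene Stab1 (53.3 against 227 CPM in wild type and 9.50 against 179 CPM in AC8) and less of the platelet factor gene Pf4 (319.7 against 650.4 CPM in wild type and 171 against 608 CPM in AC8). In the Ccr2 cells the S100a6 level was thus higher and Stab1 and Pf4 were lower in both libraries. The Ccr2 cells held only 37537 and 105260 UMIs over all genes, so their Stab1 levels rest on very few UMIs. Cells with a Cx3cr1 UMI had more Cd72 (287 against 203 CPM in wild type and 490.0 against 318 CPM in AC8). They had less S100a6 (188 against 311 CPM in wild type and 699 against 1098 CPM in AC8), the other direction from the Ccr2 cells for that gene. Cells above the class II median had more Cd74 (61747 against 40364 CPM in wild type and 61303 against 39363 CPM in AC8) and Tnfsf9 (258 against 157 CPM in wild type and 485 against 302 CPM in AC8), and less Stab1 (139.7 against 277 CPM in wild type and 114 against 183 CPM in AC8).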

How the data were processed

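Single-cell gene counts came from 2 droplet libraries, 1 per genotype. The authors deposited UMI counts per gene and cell, with no normalization. Per the labels' protocols the tool was Cell Ranger. The sources used here do not give its version. The build was mm10 per the submitters' processing notes. Sorted cell fractions were mixed before loading, so shares of cells follow the mix. The deposited tables list cells by running number, so shared barcodes could not be counted.

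Members were found by the rule given above, their UMIs summed per library, and levels given as CPM with exact Poisson intervals. Ratios have exact binomial intervals at 95%. Log2 ratios use a pseudocount of 10 CPM. A gene counted as measured with at least 30 summed UMIs. Shares of cells with a UMI use cells thinned to 1000 UMIs, with Clopper-Pearson intervals. A count of 0 allows 3 UMIs. With 1 library per genotype there was no statistical test.

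The members and the gene lists were chosen with earlier results of these data known. For each comparison the named genes are the largest log2 ratios either way, 12 each between genotypes and 8 each between cell groups, among genes that reached 100 CPM in the library where they were higher and there 20% of the level of the highest cell class. Of each list, genes at least 2-fold apart or with the largest ratios were named. Genes named outside these rules were chosen after their values were seen. Some genes that met them are not reported here. Gene positions came from GENCODE, where 98.2% of 22441 symbols matched, and promoters from RefSeq. Doublet scores from simulated cell pairs served as an alternative only and marked 1 and 2 members. The ratios were tested on simulated data. Alternatives covered the pseudocount, scaling, gene and cell filters and the rule. Versions were Python 3.11.15, matplotlib 3.10.9, scikit-learn 1.9.0, pandas 2.3.3, scipy 1.17.1 and numpy 2.4.6.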

Additional observations from a re-analysis of the deposited data

Results flagged for a closer look

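For 10 of 232 listed or named genes counted in both groups, the ratio of AC8 to wild type lay on one side of 1 in MHC class II C1q macrophages and on the other in Lyve1-set macrophages, with the counting intervals of both ratios clear of 1. The difference between the groups was not tested, since each has 1 library per genotype. The chemokine gene Ccl24 had a ratio of 2.93 here and 0.767 in Lyve1-set cells. For Cxcl1 the ratios were 2.21 and 0.677. Cxcl2, encoding another neutrophil attractant, gave 1.22 and 0.954. The peptide-loading gene H2-DMb1 stood at 1.20 and 0.811. Il1a gave 2.46 and 0.272. Maf, the transcription factor gene, gave 0.523 and 1.21. The ratios of the nuclear receptor gene Nr4a1 were 0.810 and 1.49. S100a10 stood at 2.48 and 0.889. S100a9, which had UMIs in 11 and 1 of these cells, gave 0.231 and 1.75. The ratio of Slfn2 was 1.37 here and 0.711 there. Ccl24, Cxcl1, Cxcl2 and Il1a were above 1 here over all cells and below 1 among cells under 2000 UMIs, at 0.339, 0.625, 0.669 and 0.185.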

How the results depend on the processing

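No paired analysis was possible because each genotype had 1 library, and no replicate could be left out. Of 208 values of the main results under alternatives, 173 stayed within the main value's binomial interval, or within 1.5 times of a main percent of genes, and 35 did not. For gene lists this interval took the genes of the list as independent draws, which they need not be. Wide intervals hide shifts in short lists: with at least 1 UMI, 60% of co-stimulation genes were above 0 against 33.3%, and at 2000 UMIs 50% of resident genes against 28.6%. All 24 named genes kept their sign in all 16 settings, and 17 stayed at least 2-fold in each. These genes were picked as the most extreme ratios in these cells, and the settings re-used the same 2 libraries. Their kept signs are therefore not an independent check. The percent of genes at least 2-fold higher was 5.55 with a pseudocount of 1 CPM, 0.752 with 50 and 5.04 in cells of at least 2000 UMIs. The percent lower was 5.09 and 0.582 with those pseudocounts and 1.81 with the rule applied after thinning. Shares among C1q macrophages, wild type then AC8, were 27.3 and 28.0% at 2000 UMIs, 45.8 and 42.0% after thinning, 26.5 and 25.1% with no Lyve1-set UMI, and 46.1 and 50.4% in cells under 2000 UMIs. Shares among all cells were 4.26 and 4.87% at 500 UMIs, 3.89 and 6.81% at 2000, 6.83 and 7.95% after thinning, 3.79 and 4.54% with no Lyve1-set UMI, and 6.65 and 4.33% under 2000 UMIs. With at least 100 summed UMIs, 41.2% of NF-kB genes, 100% of type I interferon and 100% of monocyte genes were above 0. Monocyte genes were also at 100% with median-ratio scaling, with the mean over cells and with C1q and class II sums of at least 6. Chemokines were at 93.3% at 2000 UMIs. Under 2000 UMIs, an alternative chosen after seeing the data, the percent above 0 was 20 for chemokines, 18.8 for NF-kB, 58.3 for lipid-associated and 63.2 for lysosomal genes. There the log2 ratios of Areg (-2.47), Ccl24 (-0.99), Cxcl1 (-0.62), Il1a (-1.69), Oasl1 (-0.59) and Tlr13 (0.34) reversed. The fits without cells holding transcripts of other cell types and without the highest cell were also chosen after seeing the data. The cause of each change was not tested. Genes under about 30 UMIs could not be compared at this depth.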

Other observations

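Secreted growth and repair factors were measured for 9 of 15 genes, of which 7 were above 0 and 3 at least 2-fold higher in AC8, with a median log2 ratio of 0.47. Beside Il1rn these were Ecm1, extracellular matrix protein 1 (50.4 and 166 CPM), and Areg, the growth factor amphiregulin (39.8 and 97.6 CPM). Fibroblasts had a UMI of Ecm1 at equal depth in 44.7% and 58.2%, against 3.52% and 10.6% of the macrophages. For Areg, 1 AC8 cell held 44.3% of the UMIs, and there were 9 and 0 UMIs of Areg under 2000 UMIs and 6 and 61 above. Igf1, a growth factor made by resident macrophages, stood at 119 and 169.5 CPM.

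Of 18 measured chemokine and growth factor receptors 9 were above 0, and Ccrl2, a chemerin-binding receptor, was at least 2-fold higher (236 and 513 CPM), with ratios of 1.29 among cells under 2000 UMIs and 2.08 among deeper cells. Tnfrsf1b, the second tumour necrosis factor receptor, stood at 98.1 and 51.2 CPM, with ratios of 1.13 in the shallower and 0.392 in the deeper cells, so its direction differed with depth. Tgfbr1 stood at 262 and 159.9 CPM. Among 19 measured phagocytic receptors 8 were above 0, and Anxa1, which encodes the pro-resolving protein annexin A1, was at least 2-fold higher (159 and 405 CPM). Of 12 measured Toll-like receptor and inflammasome genes 8 were below 0. Tlr13, a receptor for bacterial ribosomal RNA, had 21 and 9 UMIs, of which 6 and 4 lay in the shallower cells, a ratio of 1.36 there. The lipopolysaccharide co-receptor gene Cd14 stood at 2947 and 2007 CPM and Gsdmd, the pore-forming gasdermin D, at 37.1 and 86.4 CPM, with ratios by depth of 3.19 and 2.08.

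Of 12 measured cyclic AMP and CREB target genes 3 were above 0, 1 (Areg) was at least 2-fold higher and none 2-fold lower, with a median log2 ratio of -0.30. Pde4b, a phosphodiesterase that breaks down cyclic AMP, stood at 421 and 264 CPM and Crem, a cyclic AMP-responsive repressor, at 47.7 and 35.2 CPM. The Crem ratio was 0.678 and 1.02 by depth. Of 7 measured interferon gamma response genes 6 were above 0 and none was 2-fold apart. The immunoproteasome subunit gene Psmb8 stood at 217 and 409 CPM and the peptide transporter gene Tap2 at 39.8 and 84.8 CPM, with Tap2 ratios of 4.07 and 1.54 by depth. Only 3 of 16 proliferation genes were measured, and Stmn1 (37.1 and 104 CPM) had 41.5% of its AC8 UMIs in 1 cell.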
